A study of Mus musculus with 4 samples.

Results

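The genes described here are 37 NRF2 and antioxidant genes, found by an exact match of gene symbol among the 52630 gene identifiers of a TPM table from AML12 cells. AML12 is a mouse hepatocyte line, established from mice with a human TGF-alpha transgene. Lentivirus delivered either a control short hairpin RNA (shCtrl, 2 libraries) or a hairpin directed at Topors, an E3 ligase for ubiquitin and SUMO (shTopors, 2 libraries). Each well received 200 µl of concentrated virus, the medium was replaced at 24 hours, and cells were harvested on day 5. All cells grew in DMEM/F12 with 10% serum, 0.1 µM dexamethasone and an ITS supplement, which supplies insulin, transferrin and selenium. Each target has 1 hairpin group. Nothing in the labels tells whether paired libraries are separate cultures, and the p-values therefore reflect the spread among these 4 libraries, which may be technical. TPM, a level scaled by gene length and library total, keeps no read depth, so the depth behind each value is unknown.

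NRF2, the product of Nfe2l2, is a transcription factor that KEAP1 binds in the cytosol and passes to a CUL3 ubiquitin ligase for destruction. Oxidants and electrophiles modify KEAP1, NRF2 then escapes to the nucleus, pairs with small MAF proteins and binds antioxidant response elements in genes for detoxification, glutathione and thioredoxin metabolism, NADPH supply and iron storage. In liver this program is known for handling reactive drug metabolites and peroxides, and much of it is controlled through NRF2 protein rather than Nfe2l2 mRNA.

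The knockdown was present in both shTopors libraries, with Topors at 21.9 and 29.2 TPM in shCtrl and 4.31 and 4.65 TPM in shTopors. The knockdown libraries lay further apart than the controls, with log2 differences whose SD across genes was 0.688, against 0.429 for the controls. Of 11 hepatocyte markers, 7 had a mean of at least 1 TPM, among them Ttr and Hnf4a, while Asgr1, Cps1, Fgb and Apoa2 did not. Their summed level was 1769 and 3046 TPM in shCtrl and 850 and 1093 TPM in shTopors, which followed Ttr at 1119 and 2168 against 195 and 410 TPM. Without Ttr the sum was 650 and 878 TPM in shCtrl and 655 and 682 TPM in shTopors, which overlapped. Apob was lower in both knockdown libraries, at 319 and 360 TPM in shCtrl and 270 and 144 TPM in shTopors. Alb was highest in shTopors 2, at 402 TPM against 118 and 271 TPM in the controls, and Hnf4a, Apoa1 and Serpina1a were highest in shTopors 1. In bulk RNA, fewer cells of a type and less RNA per cell cannot be told apart. Bile duct markers summed to 953, 1414, 1891 and 1091 TPM in shCtrl 1, shCtrl 2, shTopors 1 and shTopors 2. The high sum of shTopors 1 followed Krt19, at 341, 296, 1396 and 345 TPM in the same order. Spp1 was lowest in shTopors 1, and Sox9 was lower in both knockdown libraries, at 76.9 and 91.2 against 26.9 and 42.1 TPM. None of 12 Kupffer cell and macrophage markers reached a mean of 1 TPM, 8 of them were at 0 in every library (Adgre1, Clec4f, Cd5l, Marco, Vsig4 and the C1q genes), and their sum was 0.956 to 1.94 TPM. Endothelial, stellate cell and erythroid markers, 21 genes in all, also had no mean of 1 TPM.

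NRF2 binds the antioxidant response element, so its core was looked for in the promoters of the members. The core was written TGACNNNGC and searched on both strands from 250 bases before to 50 after each RefSeq start (GRCm38.p6). Windows were found for 33 of the 37 members, and 10 of them (30.3%) held a match, against 14% of 27025 genes and 14.8% of 17491 protein-coding genes. The 10 were Nfe2l2, Gclm, Prdx1, Txnrd1, Srxn1, Sod1, Ugdh, G6pdx, Pgd and Pir. Hmox1, Gclc, Gsr and Prdx6 had no window and were not searched. The related AP-1 core, TGANTCA, was in 4 members (12.1%, against 8.97% of all genes), and it overlapped the element core in Prdx1 and Pir. Shown here are the 5 matches of tested members that lie upstream of every annotated transcript of their gene, written on the strand of the gene with the core in capitals. They lie at chr2:75704880-75704913 (minus strand, Nfe2l2), chr3:122245408-122245446 (plus strand, Gclm), chr4:116685451-116685489 (plus strand, Prdx1), chr5:65435951-65435989 (minus strand, Ugdh) and chr16:90220691-90220729 (plus strand, Sod1).
Nfe2l2: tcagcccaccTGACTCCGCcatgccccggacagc
Gclm: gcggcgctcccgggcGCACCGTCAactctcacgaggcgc
Prdx1: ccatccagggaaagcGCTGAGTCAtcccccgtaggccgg
Ugdh: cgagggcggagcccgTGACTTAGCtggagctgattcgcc
Sod1: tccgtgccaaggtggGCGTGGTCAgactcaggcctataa
Nfe2l2 and Ugdh held the core in the forward direction, and Gclm, Prdx1 and Sod1 held its reverse complement. A match is a string of letters, not a measured binding site, and Nqo1 and Osgin1 had none in this window.

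Of the 37 genes, 34 averaged 1 TPM or more across the 4 libraries and entered the limma test, which covered 13509 such genes. Gpx2, Pir and Nqo1 were below that level. No tested member passed an adjusted p of 0.05, where 0.037% of all tested genes did. At an unadjusted p under 0.05, Osgin1, Gclm and Cat were lower, 8.82% of members against 10.7% of all genes, and no member was higher, against 3.98%. Both shTopors libraries lay below both controls for 12 of the 34 (35.3%, against 35.2% of all tested genes). They lay above both controls for 2 (5.88%, against 14.6%). The median log2 change of the members was -0.18, and that of all tested genes was -0.18. On the deposited scale the share of members that were lower and their median thus lay close to those of all genes. Single members spread from -1.49 to 0.62.

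**Figure D1:**
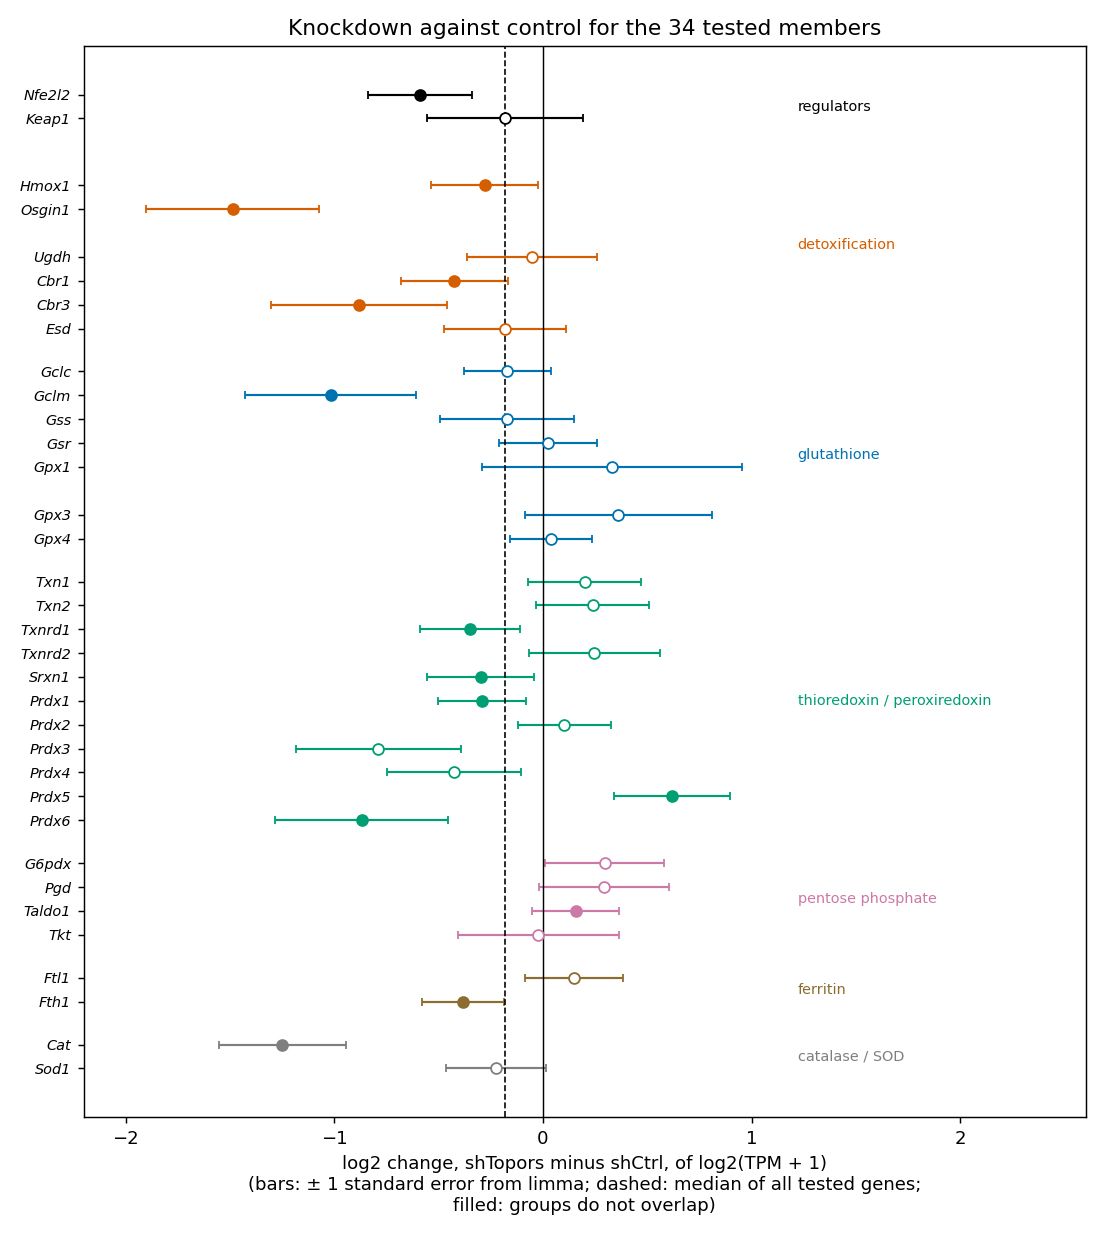
Log2 change of shTopors minus shCtrl on the log2(TPM + 1) scale for the 34 tested members, grouped by role, with bars of ± 1 standard error from limma, the median of all tested genes dashed, and filled points where the groups did not overlap. Osgin1, Cat and Gclm sit furthest to the left at -1.49, -1.25 and -1.02, and Prdx5 furthest to the right at 0.62.

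The all-gene median depends on how libraries are scaled. With median-of-ratios scaling it was 0.0073, and quantile normalization of the same genes gave -0.0064. After quantile normalization the median of the members was -0.11. There 12 of 34 members were lower without overlap, where 22.7% of all tested genes were, and 5 were higher, where 24.6% were. Under the deposited scale, these scalings and a rescaling without the 50 most abundant genes, both knockdown libraries stayed below both controls for 6 members: Nfe2l2, Gclm, Srxn1, Osgin1, Cbr1 and Cat. They stayed above both controls for Taldo1 and Prdx5. Under each single scaling 22.5% to 35.2% of all tested genes were below and 14.6% to 26.1% above. The share of all genes that kept their side under every scaling was not computed. For the other 6 members separated on the deposited scale (Hmox1, Txnrd1, Fth1, Prdx1, Prdx6 and Cbr3) the groups overlapped under at least 1 other scaling.

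Nfe2l2 mRNA was lower in both knockdown libraries while that of its repressor Keap1 was mixed. Nfe2l2 (chromosome 2, 75675513 to 75704641, minus strand, mm10) stood at 119 and 144 TPM in the controls, and the knockdown libraries read 77.0 and 98.1 TPM. Means were 132 ± 17.5 and 87.5 ± 14.9 TPM (SD, n = 2), 1.51-fold lower in the knockdown. The log2 change was -0.59 (SE 0.251, adjusted p = 0.342 in limma), or -0.41 relative to the all-gene median. Keap1 was at 25.3 and 20.6 TPM in the controls, with 28.7 TPM in shTopors 1 and 13.9 TPM in shTopors 2. The knockdown libraries thus bracketed the controls, 2.07-fold apart, with a log2 change of -0.18 (adjusted p = 0.832). The ratio of Nfe2l2 to Keap1 within a library, which does not change when a library is multiplied by a factor, was 4.72 and 7.0 in shCtrl and 2.69 and 7.07 in shTopors.

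The detoxification genes included Osgin1, the tested member with the largest log2(TPM + 1) change, and a pair of genes, Nqo1 and Pir, listed below 1 TPM in every library. Osgin1 (chromosome 8, 119434124 to 119446256, plus strand), which encodes oxidative stress induced growth inhibitor 1, was at 143 and 90.4 TPM in shCtrl and 26.8 and 59.5 TPM in shTopors. Both knockdown libraries were below both controls, although each pair was itself 1.59-fold and 2.22-fold apart. The means were 117 ± 37.4 and 43.1 ± 23.1 TPM, 2.71-fold lower, with a log2 change of -1.49 (SE 0.415, adjusted p = 0.224). Without shTopors 2 it passed the threshold (log2 change -2.05, adjusted p = 8.08e-07), with the lone knockdown library assumed to vary like the controls, and without shTopors 1 it did not.

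Hmox1, heme oxygenase 1, was lower in both knockdown libraries, shTopors 2 only slightly, at 47.4 and 44.7 TPM in shCtrl and 33.9 and 42.0 TPM in shTopors (log2 change -0.28, adjusted p = 0.623). The carbonyl reductase gene Cbr1 was at 26.3 and 29.0 TPM in shCtrl and 19.2 and 21.5 TPM in shTopors, 1.36-fold lower with little spread inside either group (adjusted p = 0.469). Cbr3, which lies near it on the same strand of chromosome 16, was at 1.55 and 4.31 TPM in shCtrl and 1.41 and 0.648 TPM in shTopors. The controls differed 2.79-fold there, and the adjusted p was 0.384. The log2 change of Cbr3, -0.88 with all libraries, was -1.16 without shTopors 1, -1.41 without shCtrl 1 and only -0.35 without shCtrl 2.

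Ugdh, which makes UDP-glucuronic acid for glucuronidation, was at 53.2 and 70.2 TPM in shCtrl and 74.4 and 46.6 TPM in shTopors, so the groups overlapped. Esd, S-formylglutathione hydrolase, overlapped too, at 195 and 294 TPM in shCtrl and 252 and 177 TPM in shTopors. Nqo1, the NADPH quinone reductase often used as a readout of NRF2 activity, had only 0.560 and 0.765 TPM in shCtrl and 0.215 and 0.434 TPM in shTopors. Pir, the pirin gene, was at most 0.111 TPM in any library. Neither was tested, and levels this low leave little to compare. Over the 6 tested detoxification genes the median log2 change was -0.35, and 4 of the 6 (66.7%, against 35.2% of all tested genes) had both knockdown libraries below both controls. Under median-of-ratios scaling only Osgin1 and Cbr1 of these were below, where 22.5% of all genes were.

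**Figure D2:**
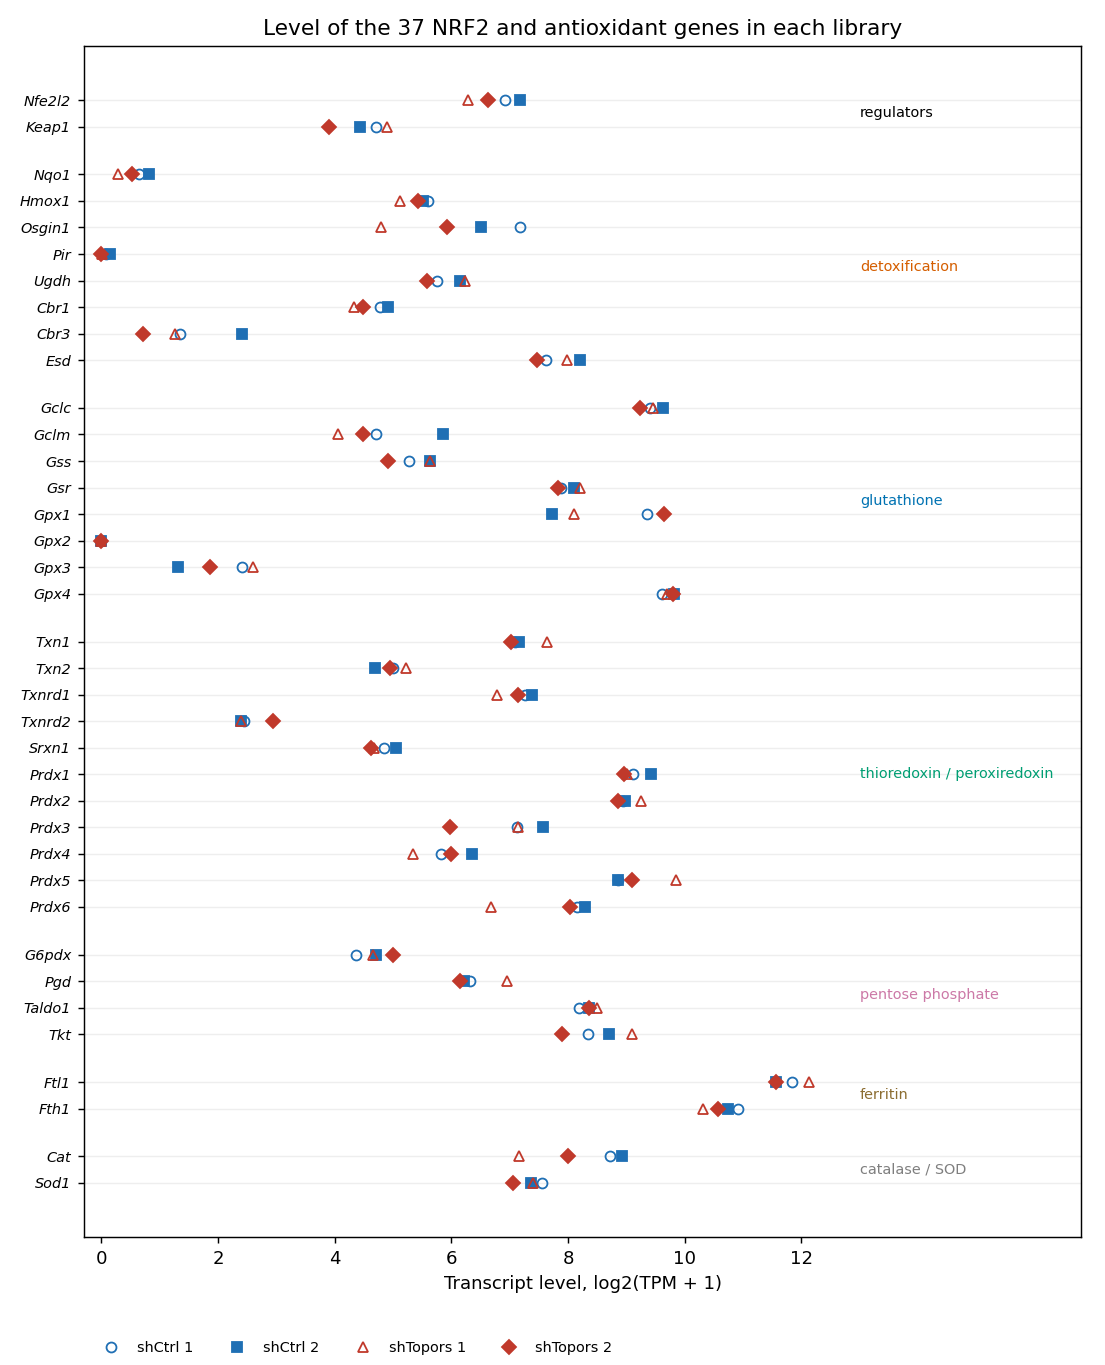
Level of each of the 37 genes in each of the 4 libraries as log2(TPM + 1), grouped by role, with open and filled symbols for libraries 1 and 2 of each group. Ferritin, Gpx4 and Gclc transcripts sit at the right, Nqo1, Pir and Gpx2 at or near 0, and the 4 Gpx1 points spread widely without separating by group.

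Among glutathione genes, the pair of subunits of glutamate-cysteine ligase, which makes the rate-limiting step of glutathione synthesis, stood at very different levels. Gclc, the catalytic subunit, was at 675 and 793 TPM in shCtrl and 704 and 601 TPM in shTopors, above 98.9% of tested genes by mean level. Its groups overlapped, with a log2 change of -0.17 (SE 0.209, adjusted p = 0.711). Gclm (chromosome 3, 122245557 to 122270732, plus strand), the modifier subunit that raises the activity of the enzyme, was at 25.2 and 57.0 TPM in shCtrl and 15.7 and 21.3 TPM in shTopors. Both knockdown libraries were below both controls, but shCtrl 2 was 2.26-fold above shCtrl 1, and only 3.22% of tested genes had a wider control pair. The mean was 2.23-fold lower, 41.1 ± 22.5 against 18.5 ± 3.99 TPM, with a log2 change of -1.02 (SE 0.409, adjusted p = 0.322). With 1 library left out, the log2 change was -1.23 without shTopors 2, -1.59 without shCtrl 1 and only -0.44 without shCtrl 2. A processed pseudogene that overlaps Gclm on the same strand, Gm6061, was listed at 7.22, 7.83, 7.62 and 5.655 TPM, so the value of Gclm is uncertain to that extent.

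Per library the ratio of Gclc to Gclm was 26.7 and 13.9 in shCtrl and 44.9 and 28.2 in shTopors. Both knockdown ratios were above both control ratios, with shTopors 2 close to shCtrl 1. Gss, glutathione synthetase, was at 37.6 and 48.5 TPM in shCtrl and 48.8 and 29.3 TPM in shTopors, and Gsr, glutathione reductase, at 236 and 274 TPM in shCtrl and 295 and 227 TPM in shTopors. For both, shTopors 1 was the highest library and shTopors 2 the lowest, and the adjusted p was 0.817 and 0.966.

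**Figure D3:**
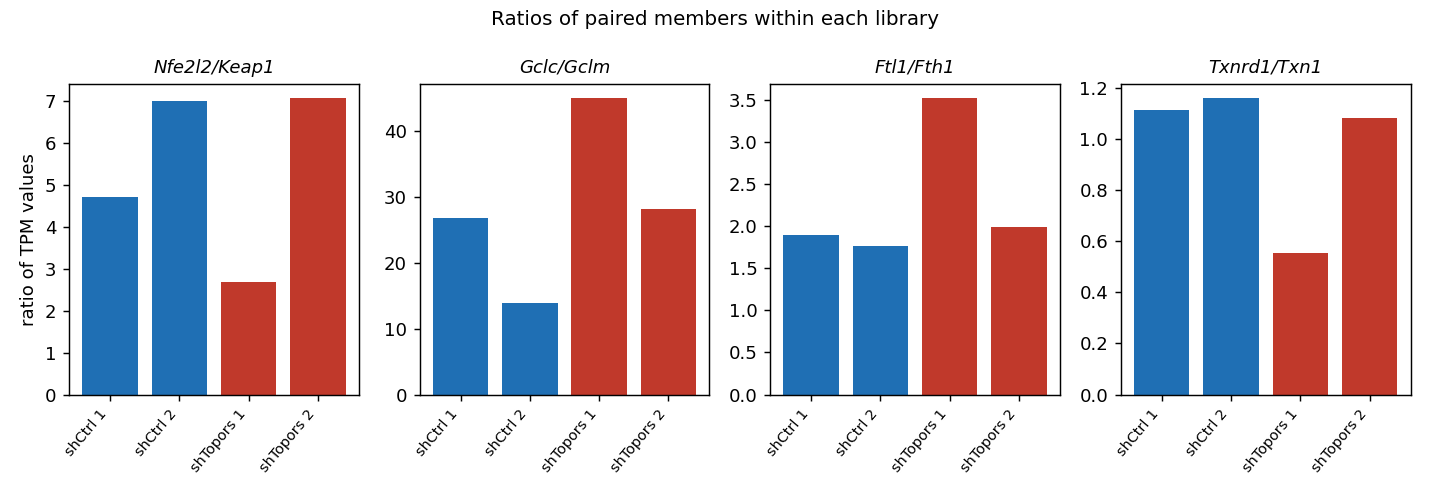
Ratios of TPM of paired members within each library (shCtrl blue, shTopors red), each panel with its own axis from 0. The Gclc to Gclm ratio is higher in both knockdown libraries, at 44.9 and 28.2 against 26.7 and 13.9, and the Ftl1 to Fth1 ratio is high in shTopors 1 at 3.52 against 1.76 to 1.99 in the others.

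Glutathione peroxidases 1 to 4 and the thioredoxin reductases are selenoproteins, which read an in-frame TGA codon as selenocysteine. Of the 37 longest coding sequences in GENCODE M21, 6 held an internal TGA, namely Gpx1, Gpx2, Gpx3, Gpx4, Txnrd1 and Txnrd2. The bases around it are shown because translation of these mRNAs depends on selenium, with the selenocysteine codon in capitals.
Gpx1, codon 47: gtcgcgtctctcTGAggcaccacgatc
Gpx3, codon 73: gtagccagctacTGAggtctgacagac
Gpx4, codon 129: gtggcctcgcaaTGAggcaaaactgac
Txnrd1, codon 612: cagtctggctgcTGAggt
Txnrd2, codon 526: gtgactggttgcTGAggc
In the peroxidases the codon sits inside the reading frame, and in both reductases it encodes the penultimate amino acid.

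Gpx1, the abundant cytosolic peroxidase, differed more within each pair than any other tested member, and its libraries did not sort by group. It was at 649 and 211 TPM in shCtrl and 274 and 795 TPM in shTopors. The control pair was 3.07-fold apart, which only 1.30% of tested genes exceeded, and the knockdown pair 2.91-fold apart, which 7.14% exceeded. The log2 change was 0.33 (SE 0.622, adjusted p = 0.816). Leaving out 1 library set its direction: the log2 change was 1.14 without shCtrl 1 and 1.10 without shTopors 1 (adjusted p = 0.0170 for the latter), and -0.48 without shCtrl 2 and -0.44 without shTopors 2. Gpx4, which reduces lipid hydroperoxides and guards against ferroptosis, was as even as Gpx1 was uneven, at 784 and 900 TPM in shCtrl and 833 and 894 TPM in shTopors (log2 change 0.04, SE 0.196, adjusted p = 0.935). Gpx3, the secreted plasma form, was low, at 4.34 and 1.49 TPM in shCtrl and 5.04 and 2.64 TPM in shTopors. Gpx2, the gastrointestinal form, was listed at 0 in all 4 libraries. Of the 7 tested glutathione genes, 1 (Gclm, 14.3%) was lower without overlap and 0 were higher, against 35.2% and 14.6% of all tested genes. Their median log2 change was 0.025, and 6 of the 7 exceeded the all-gene median change, as 50% of all tested genes do by definition. Over the 5 tested selenoprotein members, 1 had both knockdown libraries below the controls (Txnrd1), none had them above, and 4 overlapped, where 35.2% of all tested genes were below, 14.6% above and 50.2% overlapped.

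The thioredoxin system reduces protein disulfides and recharges the peroxiredoxins with electrons from NADPH. Txn1, cytosolic thioredoxin, was at 136 and 142 TPM in the controls, with 198 TPM in shTopors 1 and 129 TPM in shTopors 2. Its reductase Txnrd1 was at 152 and 165 TPM in shCtrl and 110 and 140 TPM in shTopors, lower in both knockdown libraries with a log2 change of -0.35 (SE 0.239, adjusted p = 0.511). The ratio of Txnrd1 to Txn1 was 1.12, 1.16 and 1.08 in shCtrl 1, shCtrl 2 and shTopors 2, and 0.554 in shTopors 1. Txn2, mitochondrial thioredoxin, was at 31.1 and 24.7 TPM in shCtrl and 36.1 and 29.9 TPM in shTopors. Txnrd2, its reductase, was at 4.43 and 4.24 TPM in shCtrl and 4.23 and 6.66 TPM in shTopors, with only shTopors 2 apart from the rest. Srxn1, sulfiredoxin, which repairs over-oxidized peroxiredoxins, was at 27.8 and 32.0 TPM in shCtrl and 24.6 and 23.6 TPM in shTopors, a small separation with a log2 change of -0.30 (adjusted p = 0.599).

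The 6 peroxiredoxins, which break down hydrogen peroxide and organic peroxides, differed from each other in direction. Prdx5 (chromosome 19, 6906697 to 6910106, minus strand), found in mitochondria, peroxisomes and cytosol, was at 463 TPM in both controls and at 924 and 547 TPM in shTopors. The log2 change was 0.62 (SE 0.278, adjusted p = 0.365), the highest of any tested member, and without shTopors 2 it passed (0.99, adjusted p = 0.00186). Its gene overlaps Trmt112 on the opposite strand, which was at 59.9 to 72 TPM.

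Prdx6, a 1-cysteine peroxiredoxin with phospholipase activity, was at 285 and 311 TPM in the controls, with 102 TPM in shTopors 1 and 260 TPM in shTopors 2. Its difference came mostly from shTopors 1, with a log2 change of -0.87 (SE 0.414, adjusted p = 0.383) that was -1.54 without shTopors 2 (adjusted p = 2.20e-05). Mitochondrial Prdx3 showed the opposite dependence, at 139 and 190 TPM in the controls, with 140 TPM in shTopors 1 and 62.2 TPM in shTopors 2. The groups overlapped because shTopors 1 lay just above shCtrl 1, and the log2 change of -0.79 (SE 0.396, adjusted p = 0.404) became -1.37 without shTopors 1 (adjusted p = 0.0015).

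Prdx1, the abundant cytosolic form, was at 555 and 689 TPM in shCtrl and 515 and 494 TPM in shTopors (log2 change -0.29, adjusted p = 0.527). Prdx2 was at 488 and 503 TPM in shCtrl and 611 and 463 TPM in shTopors, with shTopors libraries on either side of the controls, and it overlaps Junb, at 270 to 507 TPM, on the opposite strand. With the strand setting not given in the sources used here, Prdx2 and other members with an opposite-strand gene are uncertain values. Prdx4, of the endoplasmic reticulum, was at 55.7 and 80.7 TPM in shCtrl and 39.5 and 62.4 TPM in shTopors, which overlapped. Over the 11 thioredoxin and peroxiredoxin genes the median log2 change was -0.29, with 4 (36.4%) lower and 1 (9.09%) higher without overlap, near the all-gene share of 35.2% lower and under that of 14.6% higher. It shifted with the library left out, from -0.40 without shCtrl 1 to -0.10 without shTopors 1.

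The pentose phosphate genes, which supply NADPH for the glutathione and thioredoxin systems, had a median log2 change of 0.22 on the deposited scale. There 4 of 4 exceeded the all-gene median change, as 50% of all tested genes do by definition. After quantile normalization Tkt was at -0.031, below the all-gene median of -0.0064. G6pdx, the glucose-6-phosphate dehydrogenase that commits glucose to this route, was at 19.6 and 25.0 TPM in shCtrl and 24.1 and 31.1 TPM in shTopors (log2 change 0.30, adjusted p = 0.641), and it overlaps Ikbkg, at 49.5 to 113 TPM, on the opposite strand. Pgd, which makes the pathway's other NADPH, was at 78.5 and 73.0 TPM in the controls, with 123 TPM in shTopors 1 and 70.2 TPM in shTopors 2. In the non-oxidative branch, Taldo1, transaldolase, was at 290 and 326 TPM in shCtrl and 358 and 329 TPM in shTopors, just above the controls (log2 change 0.16, adjusted p = 0.732). Tkt, transketolase, was at 323 and 417 TPM in the controls, with 548 TPM in shTopors 1 and 238 TPM in shTopors 2. Its knockdown libraries were 2.30-fold apart on either side of the controls, and its log2 change was -0.02 (SE 0.387). In Pgd, Taldo1 and Tkt shTopors 1 was above shTopors 2, and without shTopors 1 the median of the group was -0.0064.

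Ferritin subunit mRNAs were the most abundant of the members, and heavy and light chains went different ways in shTopors 1. Fth1, the heavy chain that oxidizes iron for storage, was at 1927 and 1713 TPM in shCtrl and 1272 and 1524 TPM in shTopors. The mean was 1.30-fold lower, 1820 ± 151 against 1398 ± 178 TPM, with a log2 change of -0.38 (SE 0.196, adjusted p = 0.409). Ftl1, the light chain, was at 3647 and 3022 TPM in shCtrl and 4476 and 3029 TPM in shTopors, with a log2 change of 0.15 (SE 0.235, adjusted p = 0.777) that was -0.08 after quantile normalization. The Ftl1 to Fth1 ratio was 1.89 and 1.76 in shCtrl, 3.52 in shTopors 1 and 1.99 in shTopors 2. Ftl1 is an uncertain value: a gene annotated as a miRNA on its strand, Gm22133, was listed at 4936, 3778, 5819 and 4633 TPM, and 11 other genes share 100 or more bases with it at 95% identity or more. Those 11 summed to 50.6 to 73.9 TPM, at most 1.77% of Ftl1 in any library.

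Catalase showed the lowest adjusted p of the members. Cat (chromosome 2, 103453849 to 103485160, minus strand), the peroxisomal enzyme that splits hydrogen peroxide, was at 422 and 487 TPM in shCtrl and 142 and 254 TPM in shTopors. Even the higher knockdown library was well below the lower control. The means were 455 ± 46.3 and 198 ± 78.7 TPM, 2.29-fold lower, with a log2 change of -1.25 (SE 0.305, adjusted p = 0.192). The log2 change was -0.83 without shTopors 1 and -1.66 without shTopors 2, fits in which the lone knockdown library is assumed to vary like the controls. Without shCtrl 1 and without shCtrl 2, which keep both knockdown libraries, the change was -1.35 (adjusted p = 0.641) and -1.15 (adjusted p = 0.935). Of the hepatocyte markers Ttr and Apob were also lower in both knockdown libraries, while the sum without Ttr overlapped. The part of these markers in the Cat difference was not tested. Sod1, the cytosolic superoxide dismutase, was at 187 and 163 TPM in shCtrl and 169 and 132 TPM in shTopors, with overlapping groups (log2 change -0.22, adjusted p = 0.671).

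The knockdown libraries disagreed on many of these genes. They were more than 1.5-fold apart for 16 of the 34 members (47.1%, against 36.1% of all tested genes), and the controls for 6 (17.6%, against 17.6%). Without shTopors 1, Gpx1 passed as higher and Prdx3, Cbr3 and Cat as lower, 4 of 34 members where 8.49% of all tested genes passed. Without shTopors 2, Prdx5 passed as higher and Osgin1, Cat, Prdx6 and Gclm as lower, 5 of 34 members where 16% of all tested genes passed. Cat was the only member on both lists, and the share of all tested genes on both was not computed. These fits assume that the lone knockdown library varies like the controls, which lay closer together than the knockdown libraries.

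**Figure D4:**
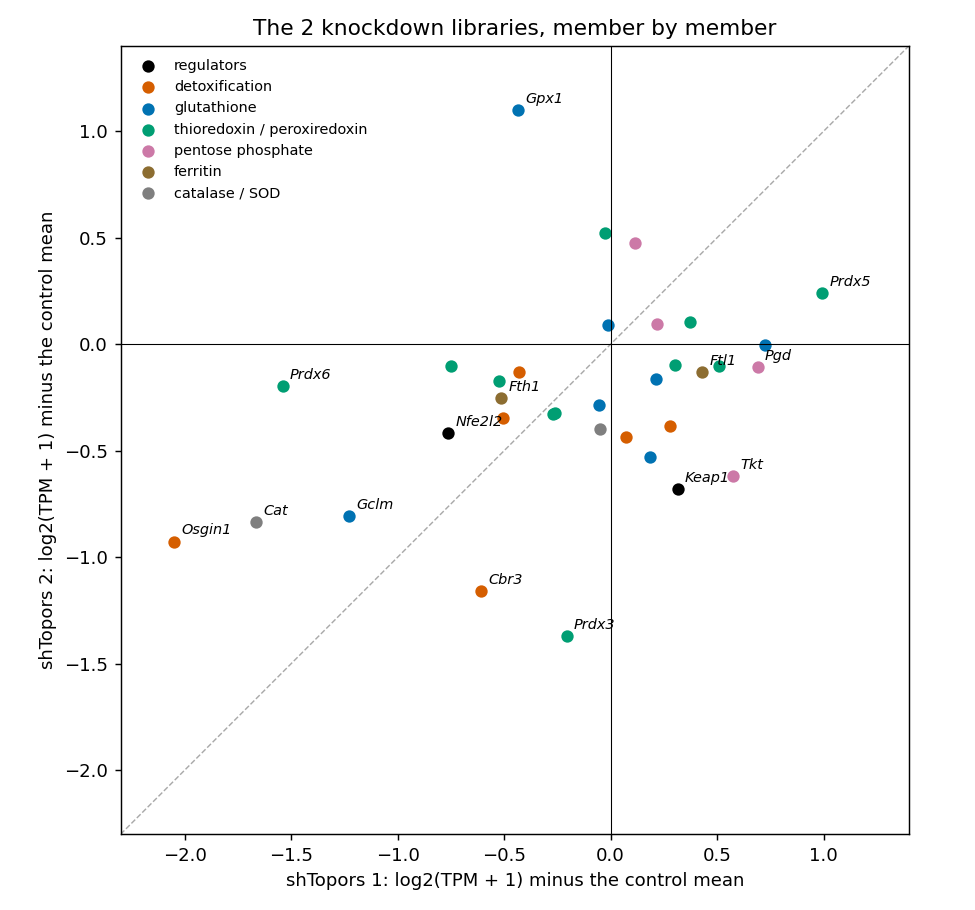
Each tested member placed by its log2(TPM + 1) in shTopors 1 and in shTopors 2, both relative to the mean of the controls, with the dashed line where the libraries are equal. Osgin1, Cat and Gclm are low in both, Prdx6 mainly in shTopors 1 and Prdx3 mainly in shTopors 2, and Gpx1 lies on opposite sides of the control mean.

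The members with a response element core in their promoter window can be set beside those without. On the deposited scale, 5 of 9 such tested members had both knockdown libraries below both controls, and none had them above. The 5 were Nfe2l2, Gclm, Txnrd1, Srxn1 and Prdx1, and the median log2 change of the 9 was -0.29. Of 21 tested members with a window and no match, 5 were below and 2 above, with a median of -0.02. Hmox1 and Prdx6, which were below, and Gclc and Gsr, which overlapped, had no window and are in neither set. Of all tested genes 35.2% were below and 14.6% above. Txnrd1 and Prdx1 overlapped under median-of-ratios scaling, where 22.5% of all genes were below and 26.1% above. G6pdx, which has a core, lay above both controls under that scaling, quantile normalization and the rescaling without the 50 most abundant genes. Gpx4, Txn1, Txn2, Txnrd2 and Prdx2, which have no match, also lay above under median-of-ratios scaling. Osgin1 and Cat, the tested members with the lowest log2(TPM + 1) change, had no match. The difference between these sets was not tested.

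Other genes of the same pathways gave 81 tested genes, of which none passed over all genes, 30 (37%) were lower and 11 (13.6%) higher without overlap, against 35.2% and 14.6% of all tested genes. Their median log2 change was -0.18, equal to that of all genes. Among other genes listed for NRF2 regulation, 8 of 10 tested genes were lower without overlap on the deposited scale, where 35.2% of all genes were. They were Nfe2l1, Bach1, Mafg, Mafk, Cul3, Sqstm1, Btrc and Gsk3b, which include small MAF partners of NRF2 and genes for its destruction. Their number under other scalings was not computed. Maff, a small MAF partner, was on the other side, at 36.4 and 46.7 TPM in shCtrl and 74.1 and 68.5 TPM in shTopors (adjusted p = 0.255), and Gsk3b, a kinase that marks NRF2 for degradation, was at 28.3 and 35.6 against 20.02 and 20.06 TPM (adjusted p = 0.331).

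Among other NRF2 targets, the detoxification enzymes Ephx1 and Gstm2 had the smallest p. Ephx1, microsomal epoxide hydrolase, was at 489 and 508 TPM in shCtrl and 127 and 160 TPM in shTopors, 3.48-fold lower with narrow pairs (log2 change -1.80, SE 0.224, adjusted p = 0.0823). Gstm2, a glutathione S-transferase from a family of similar copies, was at 162 and 240 against 64.5 and 95.5 TPM (adjusted p = 0.176). Of 24 tested other targets, 9 (37.5%) were lower without overlap and 2 (8.33%) higher, against 35.2% and 14.6% of all genes.

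In the remaining lists no gene passed either. Of other redox enzymes, 7 of 22 (31.8%) were lower and 4 (18.2%) higher without overlap, against 35.2% and 14.6% of all tested genes. Smallest in p was Oxr1, an oxidation resistance gene, at 171 and 198 against 98.0 and 112 TPM (adjusted p = 0.224). The mitochondrial glutaredoxin Glrx2 followed at 9.31 and 11.6 against 4.34 and 5.66 TPM (adjusted p = 0.244). Of other pentose phosphate genes, 3 of 7 (42.9%) were lower and 2 (28.6%) higher, against the same shares of all genes. Their median log2 change was -0.42, and 4 of the 7 lay below the all-gene median change. Rpe, ribulose-phosphate epimerase, was at 47.3 and 57.1 against 24.4 and 30.4 TPM (adjusted p = 0.226), and Shpk, sedoheptulokinase, at 9.19 and 8.60 against 3.34 and 4.91 TPM (adjusted p = 0.242).

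Iron genes included a pair that bears on ferritin. Tfrc, the transferrin receptor for iron uptake, was at 26.1 and 42.7 TPM in shCtrl and 89.6 and 86.0 TPM in shTopors, with a log2 change of 1.37 (SE 0.298, adjusted p = 0.172). Ncoa4, the receptor that carries ferritin to lysosomes, was at 54.8 and 77.6 TPM in shCtrl and 40.0 and 37.1 TPM in shTopors (adjusted p = 0.291). Of the 10 iron genes, 1 (10%) was higher and 2 (20%) were lower without overlap, against 14.6% and 35.2% of all tested genes. Of 8 genes for selenocysteine insertion, 1 was higher (12.5%, against 14.6% of all genes) and 1 lower (12.5%, against 35.2%). The higher gene was Eefsec, the dedicated elongation factor, at 14.9 and 13.8 against 20.8 and 18.7 TPM (adjusted p = 0.467). The lower gene was Scly, selenocysteine lyase, at 64.7 and 61.9 against 47.9 and 54.3 TPM (adjusted p = 0.560).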

How the data were processed

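The authors deposited TPM per gene for each of the 4 libraries. HISAT2, HTSeq, DESeq2, StringTie and mm10 are named, without versions or roles, per the submitters' processing notes. Annotation and strand setting: not given in the sources used here. Libraries were strand-specific and ribosomal RNA depleted, per the labels' protocols. Repeated identifiers (3) were summed, and 52483 of 52630 were found in GENCODE M21. The test across genes was limma 3.58.1 (R 4.3.3) on log2(TPM + 1) with a mean-variance trend, for the 13509 genes averaging 1 TPM or more. P-values are two-sided, adjusted by Benjamini-Hochberg over all tested genes and called under 0.05. A fold on this log scale understates the change of low genes. List medians and counts of groups without overlap are descriptions. Named are Topors, all 37 members, genes on which an overlap or marker value turns and, from each other list, the 2 genes of smallest p. The members and lists were chosen with earlier results of these data known. Sequences come from RefSeq (GRCm38.p6) and GENCODE M21. The fit was tested on simulated data with the control spread in every library and planted changes larger than that of any member. It does not tell how the fit performs at the wider knockdown spread or for smaller changes. Alternatives were other pseudocounts, filters, scalings, variance models, a replicate block and single libraries left out. Python 3.11.15, pandas 2.3.3, numpy 2.4.6 and matplotlib 3.10.9 were used.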

Additional observations from a re-analysis of the deposited data

How the results depend on the processing

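Apart from leaving libraries out, no alternative made a member pass (adjusted p from 0.119 to 0.990). When single libraries were left out, members passing numbered 0 to 1 higher and 0 to 4 lower, and all genes passing 0 to 687 higher and 0 to 1479 lower, against 1 and 4 with all libraries. All genes passing numbered 0 higher and 1 lower under a minimum of 5 TPM, median-of-ratios scaling, quantile normalization and rescaling without the 50 most abundant genes, and 0 in both directions with no filter. With the replicate block they were 6 higher and 27 lower, and no member passed. Same-numbered libraries share only a number in the labels, and the replicate 1 minus 2 differences of both groups correlated at 0.199 over tested genes. Members separated without overlap numbered 8 higher and 6 lower under median-of-ratios scaling (26.1% and 22.5% of all genes). They numbered 5 higher and 12 lower under quantile normalization (24.6% and 22.7% of all genes). With single libraries left out they numbered 4 to 13 higher and 13 to 24 lower (18.5% to 28.9% and 40.2% to 54.5% of all genes). Under median-of-ratios scaling the median log2 change was 0.036 for all members, -0.18 for regulators, -0.14 for detoxification genes, 0.24 for glutathione genes, -0.079 for thioredoxin and peroxiredoxin genes, 0.436 for pentose phosphate genes, 0.098 for ferritin and -0.52 for catalase and Sod1. Under quantile normalization it was -0.21 for detoxification genes, -0.15 for thioredoxin and peroxiredoxin genes and -0.35 for ferritin. Without the 50 most abundant genes, which include Ftl1, ferritin was Fth1 alone at -0.35. Single libraries left out put the median at -0.244 to -0.039 for all members and -0.163 to -0.013 for glutathione genes. For thioredoxin and peroxiredoxin genes it was -0.398 to -0.104. With all libraries these medians were -0.18, 0.025 and -0.29. The log2 change turned sign under median-of-ratios scaling for Keap1 (0.023), Gclc (0.044), Gss (0.039), Tkt (0.19), Ugdh (0.16) and Esd (0.032), under quantile normalization for Gpx4 (-0.072), Ugdh (0.041) and Ftl1 (-0.080), and without the 50 most abundant genes for Tkt (0.011). With single libraries left out it turned for 14 members, over ranges of -0.68 to 0.32 (Keap1), -0.53 to 0.19 (Gss), -0.16 to 0.21 (Gsr), -0.48 to 1.14 (Gpx1), -0.19 to 0.91 (Gpx3), -0.060 to 0.14 (Gpx4), -0.10 to 0.51 (Txn1), -0.028 to 0.52 (Txnrd2), -0.11 to 0.69 (Pgd), -0.62 to 0.58 (Tkt), -0.38 to 0.28 (Ugdh), -0.13 to 0.43 (Ftl1), -0.098 to 0.30 (Prdx2) and -0.48 to 0.11 (Esd). Fewer genes or samples are part of some alternatives, and otherwise the cause was not tested. TPM keeps no depth, so what depth limits cannot be stated.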
